A study of Mus musculus with 10 samples.

Results

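The 47 genes described here carry glucose from the cell surface through glycolysis and pyruvate into the citric acid cycle, among 25006 genes listed for each of 10 single neurons. They were chosen by function, as a list of mouse symbols matched to the Ensembl identifiers in the data, and all 47 were found. By step they are 2 glucose transporters, 9 genes of upper glycolysis, 6 of lower glycolysis, 4 of lactate handling, 10 of pyruvate entry into mitochondria and 16 of the citric acid cycle. A mean of at least 1 CPM (counts scaled to a common library total) over the 10 neurons was reached by 45 of the 47. Hk2, a hexokinase, and Pdk4, a pyruvate dehydrogenase kinase, stayed below it, with no more than 3.77 and 0.21 CPM in any neuron.

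Cytoplasm and nucleus of 1 neuron went into each library, drawn by suction through a glass pipette from an acute brainstem slice of the nucleus of the solitary tract (NTS), which receives visceral sensory input. The 5 neurons of type 2 firing property were numbered 6-2, 10-1, 10-3, 9-2 and 9-4, and the 5 of type 1 firing property 1-1, 1-2, 4-3, 8-2 and 9-1; values per neuron are listed in these orders below. All 10 neurons came from LepRb-Cre; Halo-eYFP mice of the C57BL/6 strain at 3 months of age, in which cells that express or have expressed the leptin receptor carry a yellow fluorescent protein, so both types carry Cre and the reporter and no neuron without them was measured. The labels define neither the firing types nor the neuron numbers and name no animal. Without animals to compare, the 5 neurons of a type stand for 1 sample, so the types were not tested against each other and every SD below describes cell-to-cell spread alone. The question the design poses for these genes is whether neurons of the 2 firing types differ in the transcripts of glucose breakdown.

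Glycolysis splits glucose into pyruvate in the cytosol. Pyruvate is either reduced to lactate or carried into mitochondria, where pyruvate dehydrogenase turns it into acetyl-CoA for the citric acid cycle. Neurons draw most of their ATP from the mitochondrial route, take up glucose mainly through the transporter GLUT3 (Slc2a3) and exchange lactate with glia through monocarboxylate transporters; NTS neurons include cells whose firing follows glucose.

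Gene counts per library ranged from 9796799 to 41844825. Libraries over 20000000 counts were 10-1, 10-3, 9-2 and 9-4 of type 2 and 8-2 and 9-1 of type 1, and those under it were 6-2 of type 2 and 1-1, 1-2 and 4-3 of type 1, so depth and firing type were partly tied. Values within each of these depth sets are therefore given beside the pooled ones, although the lower set holds only 1 type 2 neuron. At these depths a gene with 0 counts could still have had 0.0717 to 0.306 CPM (3 counts of the library's total). Such limits, and the intervals below, hold counting error alone, because reads without molecular identifiers are not separate molecules. All 10 libraries had 8 to 10 of 10 neuronal markers at the level called detected here, 10 CPM and 3 counts. Astrocyte markers were nearly absent, with 1 to 3 of 12 detected in type 2 neurons and 0 to 3 in type 1 neurons, and Slc1a3 and Gjb6 were at 0. Microglial markers were uneven: 13, 0, 1, 7 and 13 of 14 were detected in the type 2 neurons and 0, 5, 0, 1 and 2 in the type 1 neurons, with summed levels of 4.25 to 1846 CPM in type 2, against 0.067 to 807 CPM in type 1. Markers of the oligodendrocyte lineage summed to 39.2 to 220 CPM in type 2, against 2.07 to 1047 CPM in type 1, where 9-1 stood apart (the other type 1 neurons had 141 CPM or less). As 9-1 is the one type 1 neuron among those whose number begins with 9, these transcripts enter every value for that set below, and their part in it was not tested.

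Transcripts of glucose breakdown took a larger share of the counts in type 2 neurons. The 47 genes together held 2.41 to 3.46% of all gene counts in type 2 neurons and 1.73 to 2.12% in type 1 neurons, and the ranges did not overlap. Of the 45 measured members, 34 had a higher mean log2(CPM + 1) in type 2 and 11 a lower one, where 56.2% of the 11923 genes measured at that level were higher in type 2. The median difference, type 2 minus type 1, was 0.53 on the log2(CPM + 1) scale for the members and 0.24 for all those genes. Most of the members differed little: 32 lay within 2-fold, 11 were at least 2-fold higher in type 2 (background 31.1% of all genes), and 2 were at least 2-fold lower (background 21.6%). With each neuron left out in turn the higher count was 9 to 12 and the lower count 1 to 5: 1 without 1-2 or 9-2, 4 without 1-1, 4-3, 9-1 or 6-2, and 5 without 8-2. No share of all genes was computed for the sets with a neuron left out. Over all 10 neurons the members' share of such differences was below that of all genes in both directions. The 2 sets are not matched for level: 14.2% of all genes, against 27 of the 45 members, were detected in all 10 neurons. The lower share is therefore not read as a trait of the pathway.

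The separation of the summed share depended on how libraries were scaled. It held for library totals and for totals without the 50 most abundant genes, but not for median-of-ratios size factors (22070 to 37684 CPM in type 2, against 15868 to 24768 CPM in type 1). After TMM scaling, which also moved the median of all genes to 0.39, the summed level of the 47 genes was 21207 to 40987 CPM in type 2, against 13036 to 29029 CPM in type 1. Within the libraries over 20000000 counts the members' median difference was 0.35 (all genes 0), and within those under it 0.66 (all genes 0.33). Among the neurons whose number begins with 9, 9-2 and 9-4 against 9-1, it was 0.073, close to the 0.095 of all genes. Without 6-2, 9-2 and 9-4, the type 2 neurons with most microglial transcripts, it was 0.57 (all genes -0.01). In both depth sets alike, 30 members were higher in type 2 (background 29.6%) and 2, Hk1 and Dld, were lower (background 18.6%).

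**Figure D1:**
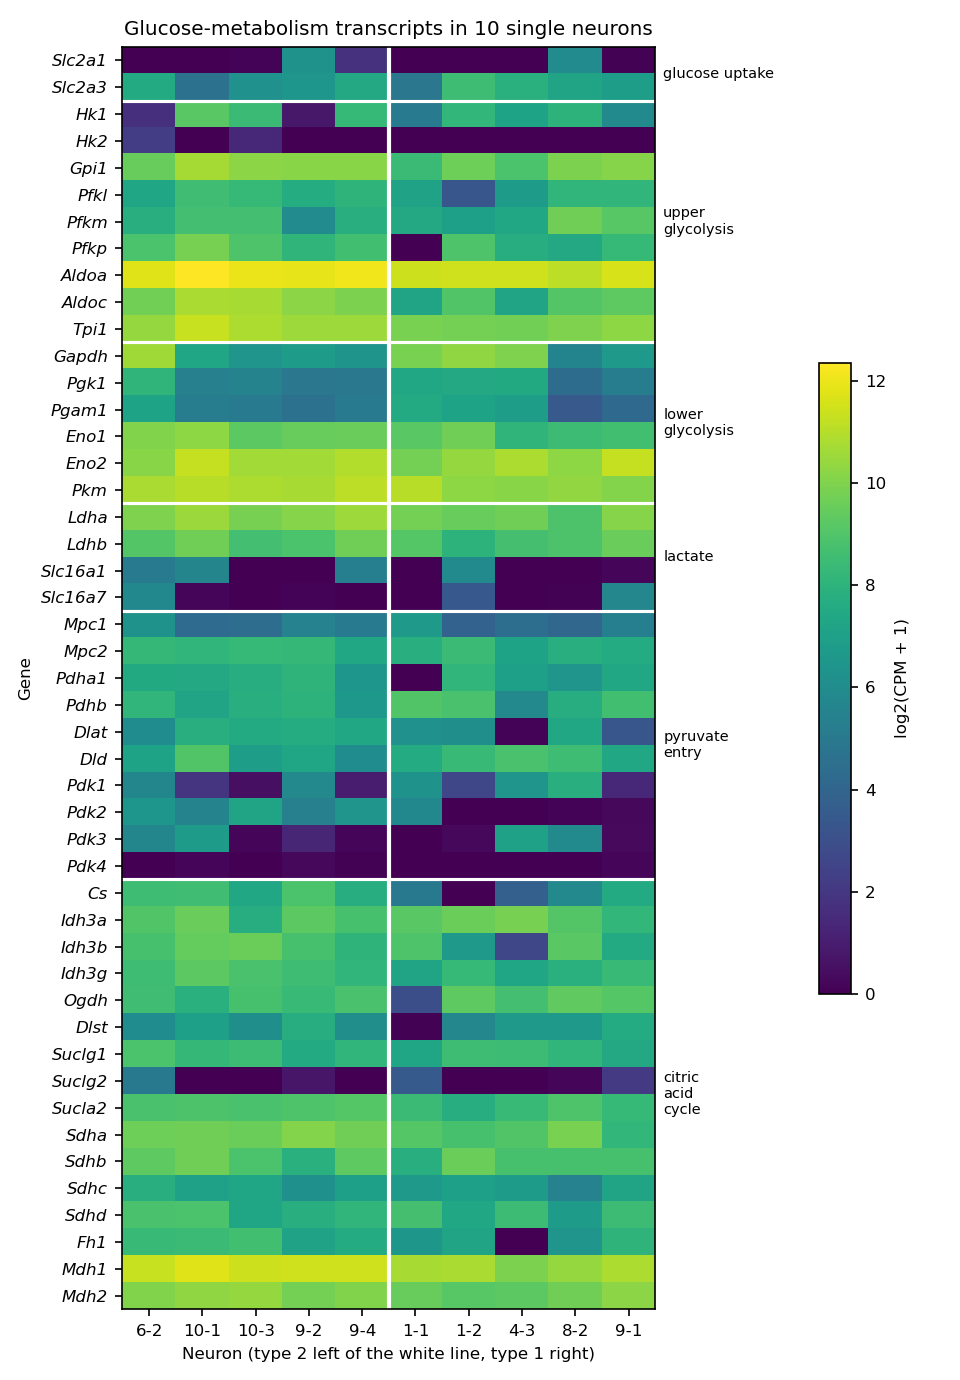
Level of each of the 47 genes (rows, grouped by step) in each neuron (columns, type 2 left and type 1 right), coloured by log2(CPM + 1). Aldoa and Mdh1 are bright in all 10 neurons, Hk2 and Pdk4 are dark throughout, and 1-1 and 4-3 lack several transcripts that the other neurons hold, with 8 members each at 0 counts.

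Coverage of the pathway was broad in every neuron. Of the 47 members, 39 to 43 were detected per type 2 neuron and 37 to 40 per type 1 neuron, beside 50.3 to 61.8% of all measured genes in type 2 and 44.6 to 59.3% in type 1, and 27 were detected in all 10 neurons (background 14.2%). Hexokinase Hk1, citrate synthase Cs, fumarase Fh1 and the 2-oxoglutarate dehydrogenase subunits Ogdh and Dlst were not among these 27. Per kilobase of exon (union of annotated isoforms), Aldoa was the highest member in all 10 neurons, with a mean of 1454 CPM per kb in type 2 and 950 in type 1. Mdh1 followed at 1135 CPM per kb in type 2 and 598 in type 1, and came after it in all neurons but 4-3. Tpi1 came next at 634 CPM per kb in type 2 and 357 in type 1. Eno2, Ldhb, Pkm and Ldha, at 361 to 390 CPM per kb in type 2 and 242 to 335 in type 1, do not differ from each other beyond the spread between neurons, and Aldoc was at 397 CPM per kb in type 2 and 121 in type 1. Slc2a1, Slc16a1, Slc16a7 and Suclg2 were not detected in most neurons and averaged 0.90 to 5.46 CPM per kb in type 2 and 0.60 to 3.58 in type 1.

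Glucose uptake was represented by Slc2a3, the neuronal transporter GLUT3, which was detected in all 10 neurons. Its levels were 189, 24.1, 74.9, 88.1 and 176 CPM in type 2, against 28.6, 367, 227, 146 and 116 CPM in type 1. The ranges overlapped widely; the means were 110 ± 70.2 CPM in type 2, against 177 ± 128 CPM in type 1 (SD, n = 5 neurons each), a log2 difference of -0.58. Within the libraries over 20000000 counts the difference was -0.82 and within those under it 0.49, so its sign was not the same in both sets. Slc2a1, which encodes GLUT1 of glia and the blood-brain barrier, was detected in 1 neuron of each type, 9-2 at 79.5 CPM and 8-2 at 62.6 CPM, and had no more than 2.35 CPM in the other 8.

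Upper glycolysis, from hexokinase to triose phosphate isomerase, held 3 of the 4 members whose type 2 and type 1 ranges did not overlap (background 1.44% of all genes higher in type 2 and 0.587% lower). They were Aldoa and Aldoc, the muscle-type and brain-type aldolases that cleave fructose 1,6-bisphosphate, and Tpi1, which interconverts the 2 triose products. Aldoa (ENSMUSG00000030695, GRCm38 chr7:126795234-126800751, minus strand) was at 3432, 5292, 4085, 3892 and 4456 CPM in type 2 neurons, against 2731, 2866, 2837, 2245 and 3142 CPM in type 1 neurons. Every type 2 neuron lay above every type 1 neuron, by a narrow margin between 6-2 and 9-1. The means were 4231 ± 698 CPM in type 2, against 2764 ± 327 CPM in type 1, a log2 difference of 0.61, with 0.73 over and 0.29 under 20000000 counts. Over all counts of a type, Aldoa reached 4408 CPM in type 2 (4397 to 4418 by an exact Poisson 95% interval) and 2691 CPM in type 1 (2681 to 2700), an error far smaller than the spread between neurons.

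Aldoc (ENSMUSG00000017390, GRCm38 chr11:78322968-78327781, plus strand) had the largest log2 difference of the members with separate ranges. Its levels were 856, 1775, 1707, 1174 and 971 CPM in type 2, against 150, 512, 147, 541 and 623 CPM in type 1. The lowest type 2 neuron was 6-2 and the highest type 1 neuron 9-1, and 1-1 and 4-3 were far below the other type 1 neurons. Means of 1296 ± 422 CPM in type 2, against 394 ± 228 CPM in type 1 gave a log2 difference of 1.92, which was 1.23 over and 1.93 under 20000000 counts, 0.78 among the neurons numbered 9, and 2.40 without 6-2, 9-2 and 9-4. Aldoc is also abundant in astrocytes, whose markers summed to 11.5 to 91.3 CPM in type 2, against 7.41 to 119 CPM in type 1. Those marker levels overlapped between the types, and in 4-3, where they were highest, Aldoc was at 147 CPM; their part in the level of Aldoc was not tested.

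Tpi1 (ENSMUSG00000023456, chr6:124810586-124814296, minus strand) was at 1360, 2546, 1823, 1521 and 1482 CPM in type 2, against 937, 889, 848, 1018 and 1223 CPM in type 1. It averaged 1746 ± 479 CPM in type 2, against 983 ± 149 CPM in type 1 (log2 difference 0.80, 0.69 over and 0.61 under 20000000 counts). The gaps of Aldoa and Tpi1 rest on scaling by library totals. With median-of-ratios size factors only Aldoc and Mdh1 kept separate ranges among the members, and with TMM only Eno1 and Pdk2 had them.

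The promoters of Aldoc and Mdh1 are shown because these were the members with separate ranges under most scalings; capitals mark ACGTG or GCGTG on either strand, the core letters of the element bound by hypoxia-inducible factors. Both sequences run from 250 bases before to 50 after the RefSeq start (GRCm38.p6), at chr11:78322823-78323122 on the plus strand for Aldoc and chr11:21571885-21572184 on the minus strand for Mdh1.
Aldoc promoter: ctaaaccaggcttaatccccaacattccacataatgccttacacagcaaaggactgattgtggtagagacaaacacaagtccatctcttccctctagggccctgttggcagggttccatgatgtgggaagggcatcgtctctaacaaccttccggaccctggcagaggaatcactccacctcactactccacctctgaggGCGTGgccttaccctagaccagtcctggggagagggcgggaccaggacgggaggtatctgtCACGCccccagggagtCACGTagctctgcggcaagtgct
Mdh1 promoter: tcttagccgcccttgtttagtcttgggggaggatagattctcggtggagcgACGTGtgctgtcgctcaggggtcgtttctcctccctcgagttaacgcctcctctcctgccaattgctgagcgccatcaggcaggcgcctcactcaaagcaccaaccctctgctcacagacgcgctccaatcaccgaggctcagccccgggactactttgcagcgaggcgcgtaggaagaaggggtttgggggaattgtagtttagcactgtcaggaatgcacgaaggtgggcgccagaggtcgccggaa
Aldoc held 3 such runs, at positions -50, 12 and 28 from the start, and Mdh1 held 1, at -199, while the windows of Aldoa and Tpi1 held none. The letters are common: 43.8% of 32851 RefSeq promoters held at least 1, and 30 of the 43 matched members (69.8%) did. A match is a run of letters and not a measured site.

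**Figure D2:**
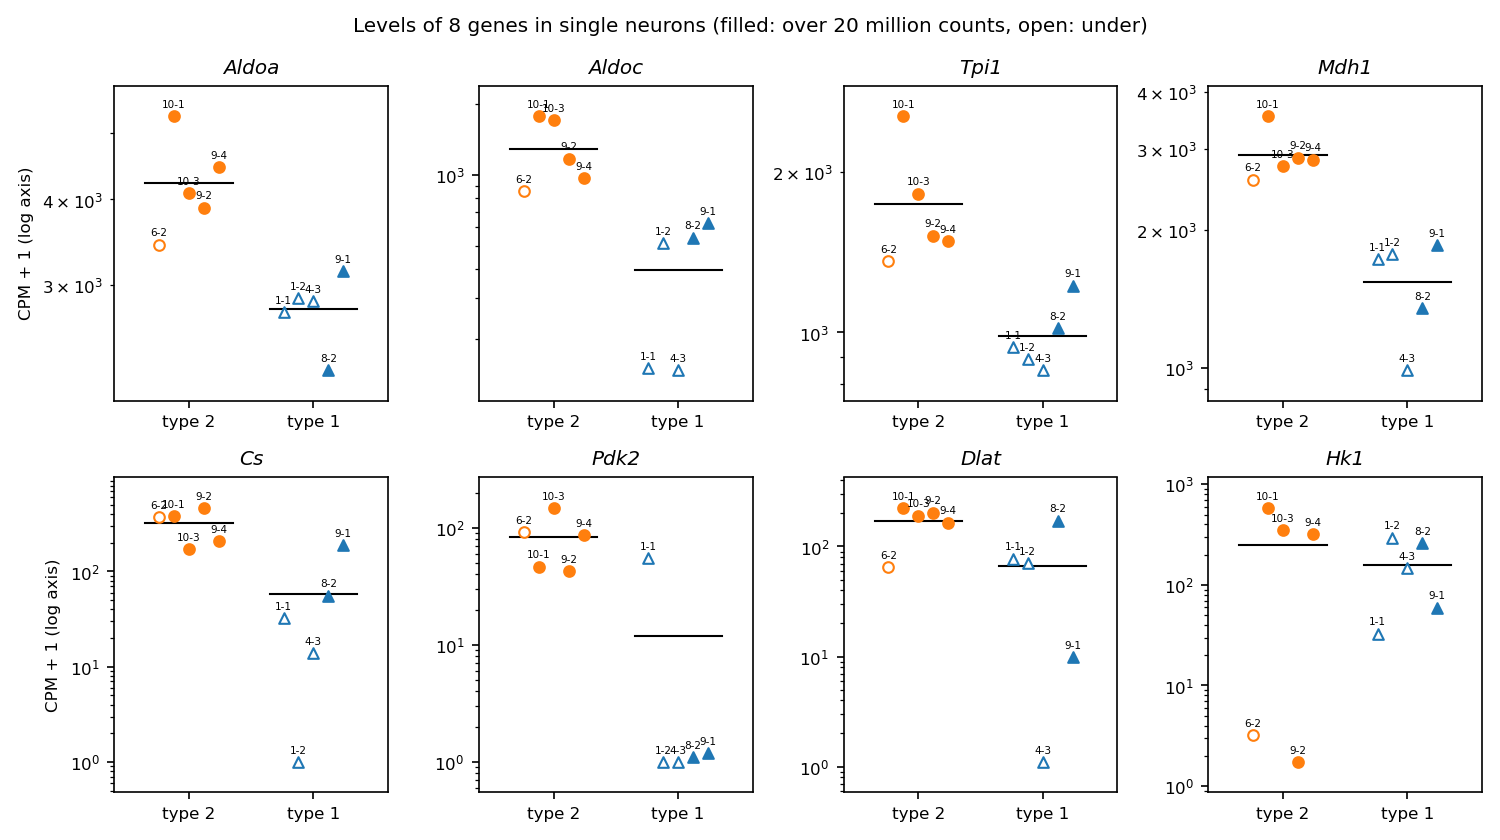
CPM + 1 on a log axis for 8 genes in each neuron, type 2 left (circles) and type 1 right (triangles), with filled symbols for libraries over 20000000 counts, open ones for those under it and bars at the mean CPM. In the top row (Aldoa, Aldoc, Tpi1, Mdh1) no type 2 neuron reaches down to a type 1 neuron; in the bottom row Pdk2 is detected in 5 neurons of type 2 and 1 of type 1, and Hk1 is near 0 in 6-2 and 9-2.

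The steps before aldolase were less even. Hk1, the hexokinase of brain that traps glucose as glucose 6-phosphate, was at 2.21, 582, 350, 0.74 and 317 CPM in type 2, against 31.6, 294, 145, 258 and 58.5 CPM in type 1. Type 2 thus held both the highest and the lowest neurons, with 6-2 and 9-2 close to 0. The mean was higher in type 2 (250 ± 249 CPM, against 158 ± 117 CPM in type 1), while the log2 difference was -1.18 and became 0.041 without 9-2 and -0.18 without 6-2, so neither direction can be assigned. Hk1 was singled out after its values were seen. Gpi1, which isomerizes glucose 6-phosphate, averaged 1181 ± 334 CPM in type 2, against 738 ± 325 CPM in type 1 (log2 difference 0.76, 0.30 over and 0.53 under 20000000 counts).

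Phosphofructokinase, the committing step of glycolysis, is built from 3 isoforms. Pfkp, the platelet type, was at 469, 917, 506, 272 and 391 CPM in type 2, against 0, 499, 209, 177 and 313 CPM in type 1. Its log2 difference of 2.39 rested in part on the 0 of 1-1 and was 0.77 without that neuron. It was 1.00 over and 3.31 under 20000000 counts. The levels of Pfkl, the liver type, were 157, 387, 311, 198 and 266 CPM in type 2, against 139, 9.02, 110, 280 and 279 CPM in type 1. Its log2 difference of 1.28 was 0.43 without 1-2, and it was 0.014 over and 1.56 under 20000000 counts. Pfkm, the muscle type, stood at 223, 406, 410, 60.7 and 226 CPM in type 2, against 175, 125, 164, 833 and 575 CPM in type 1. The 2 highest values of Pfkm were the type 1 neurons 8-2 and 9-1, and its difference was -1.66 over and 0.54 under 20000000 counts. No isoform thus separated the types, and exon bases of Pfkp and Pfkm overlap genes on the opposite strand (Pitrm1 and Senp1), whose reads cannot be told apart because the strand setting is not known. The same holds for 25 bases of Aldoa, 34 of Tpi1, 68 of Gapdh, 480 of Mpc1 and 5 of Idh3b.

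Lower glycolysis, from glyceraldehyde 3-phosphate to pyruvate, was the step where depth and firing type had to be held apart. Gapdh (ENSMUSG00000057666, GRCm38 chr6:125161715-125166467, minus strand), the dehydrogenase often used as a reference gene, was at 1538, 159, 85.4, 115 and 83.9 CPM in type 2, against 953, 1283, 995, 47.6 and 100 CPM in type 1. The high neurons, 6-2 of type 2 and 1-1, 1-2 and 4-3 of type 1, were those with under 20000000 counts, and every other neuron lay far below them. Pooled, Gapdh was lower in type 2 (log2 difference -0.97), but it was higher in type 2 within both depth sets, by 0.62 over and 0.53 under 20000000 counts.

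Pgk1, the kinase that forms the first ATP of glycolysis, showed the same arrangement at 271, 41.3, 44.6, 28.8 and 30.1 CPM in type 2, against 163, 175, 181, 19.98 and 37.2 CPM in type 1. Its pooled difference was -0.62, against 0.37 over and 0.65 under 20000000 counts. Pgam1, which moves the phosphate of 3-phosphoglycerate, was at 142, 35.9, 31.7, 24.7 and 34.0 CPM in type 2, against 191, 143, 121, 9.89 and 17.6 CPM in type 1, with differences of -0.43 pooled, 1.18 over and -0.07 under. Gapdh and Pgk1 were the members with a pooled difference below 0 and differences above 0 in both sets (background 1.88%). Pgk1 and Pgam1 were named after their values were seen.

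Set against depth alone, Gapdh, Pgk1 and Pgam1 were the only members lower in every library over 20000000 counts than in every library under it (background 1.6%). The over minus under difference of Gapdh was -3.83 within type 2 and -3.93 within type 1. For Pgk1 it was -2.89 within type 2 and -2.62 within type 1, and for Pgam1 -2.15 within type 2 and -3.40 within type 1. Gpi1 and Pfkl lay higher in every library over 20000000 counts (background 1.79%).

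**Figure D3:**
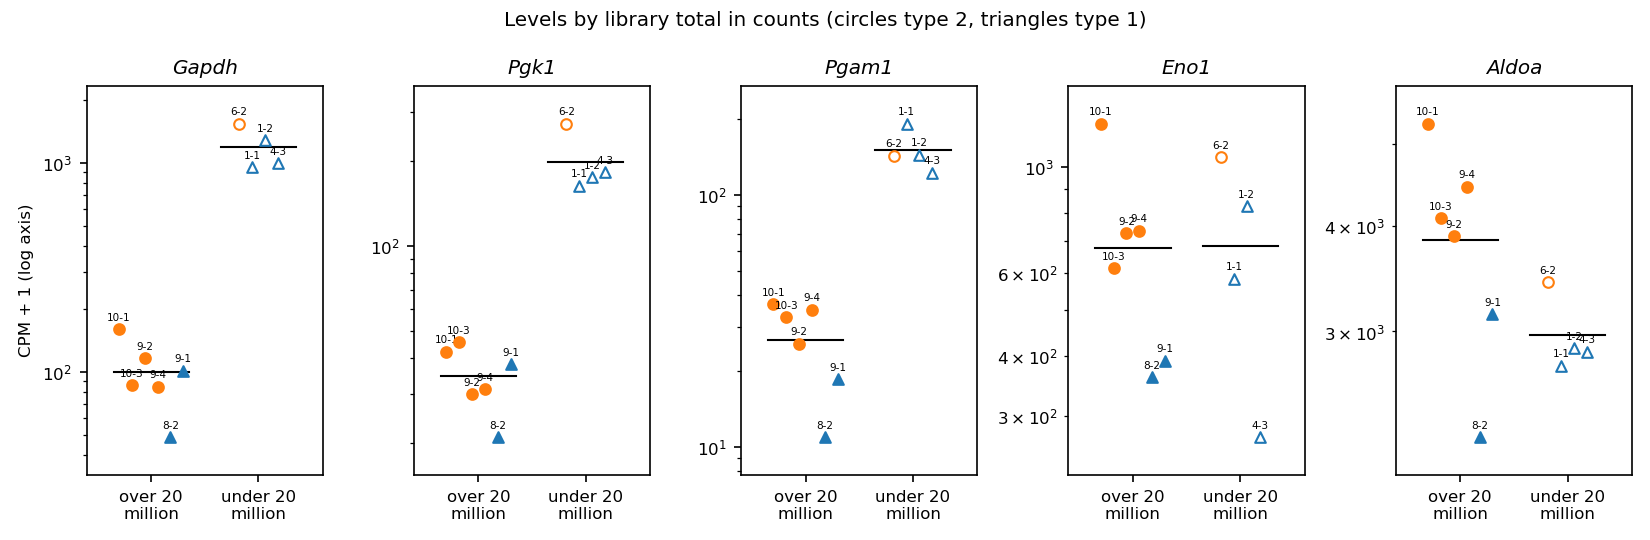
CPM + 1 on a log axis by library total, with libraries over 20000000 counts left and those under it right; circles are type 2, triangles type 1, filled symbols are libraries over 20000000 counts and bars are means of CPM. Gapdh, Pgk1 and Pgam1 separate by library total whatever the firing type, whereas Eno1 and Aldoa do not.

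These 3 genes share long exact stretches with other genes, which is shown because reads from such stretches map to more than 1 place. Of 50-base windows along the longest coding Gapdh transcript in GENCODE M21, 81.9% occurred in transcripts of other genes that do not overlap it, 195 genes in all, of which 187 are pseudogenes. The share was 67.4% for Pgk1 and 41.6% for Pgam1, and 0% for Aldoc and Mdh1. The windows printed here are from the coding part of each gene on GRCm38, in capitals where the same 50 bases occur in another gene and in lower case where they do not: chr6:125162892-125162941 (minus strand) for Gapdh, found in 68 other genes of which 65 are pseudogenes, chr19:41915611-41915660 (plus) for Pgam1, found in 2 pseudogenes, and chr11:78324405-78324454 (plus) for Aldoc, found in no other gene.
Gapdh: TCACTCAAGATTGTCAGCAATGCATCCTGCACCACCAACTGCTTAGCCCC
Pgam1: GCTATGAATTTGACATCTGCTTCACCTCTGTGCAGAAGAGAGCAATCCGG
Aldoc: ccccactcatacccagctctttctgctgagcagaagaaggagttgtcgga
A similar split was seen over all genes, where Gapdh, Pgk1, Pgam1 and Eno1 are counted among those with over 40% of windows shared. Among genes averaging 10 CPM or more, the 162 with over 40% of windows shared had a median over minus under difference of -1.65 within type 2 and -1.35 within type 1, and 34.0% of them were lower in every library over 20000000 counts. The 6716 genes with no shared window had medians of -0.29 within type 2 and 0.27 within type 1, and 0.715% of them were so placed. Eno1 had 72.2% of windows shared but differed by only -0.40 within type 2 and -0.43 within type 1. The part of shared sequence, read length or mapping settings in the split was not tested, so the levels of Gapdh, Pgk1 and Pgam1 are uncertain and their pooled differences are not read as differences between firing types.

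Eno1 and Eno2 encode the ubiquitous and the neuronal enolase. Eno1 was at 1046, 1231, 611, 724 and 733 CPM in type 2, against 581, 825, 269, 360 and 391 CPM in type 1. The types overlapped through 1-2 alone, the difference was 0.90, and it was 1.08 over and 1.05 under 20000000 counts. Eno2 differed little, with 1139, 2514, 1609, 1602 and 1989 CPM in type 2, against 893, 1383, 1850, 1248 and 2497 CPM in type 1 (difference 0.21). Pkm, the pyruvate kinase that ends the pathway, averaged 1938 ± 225 CPM in type 2, against 1377 ± 419 CPM in type 1; 4 of the 5 type 1 neurons lay at 1088 to 1301 CPM, below every type 2 neuron, and 1-1 was at 2113 CPM. Its difference was 0.53, with 0.72 over and 0.31 under 20000000 counts.

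Lactate handling was mainly a matter of the 2 lactate dehydrogenase subunits. Ldha, the subunit that favours lactate formation, was at 991, 1472, 899, 1105 and 1505 CPM in type 2, against 867, 722, 817, 479 and 1129 CPM in type 1. All type 2 neurons exceeded 4 of the 5 type 1 neurons, and 9-1 overlapped them; the difference was 0.60, with 0.73 over and 0.31 under 20000000 counts. Ldhb, the subunit that favours pyruvate formation, was at 535, 835, 410, 458 and 826 CPM in type 2, against 545, 259, 424, 474 and 737 CPM in type 1 (difference 0.35), and the ranges overlapped almost fully. The transporters were sparse. Slc16a1 (MCT1) was at 34.1, 47.9, 0, 0 and 38.9 CPM in type 2, against 0, 56.6, 0, 0.024 and 0.159 CPM in type 1, so it was detected in 3 neurons of type 2 and 1 of type 1. Slc16a7 (MCT2, the transporter of neurons) was detected only in 6-2 of type 2, at 53.2 CPM, and 9-1 of type 1, at 51.7 CPM.

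Genes of pyruvate entry had nearly equal summed levels, 1200 ± 303 CPM in type 2, against 1210 ± 217 CPM in type 1, but single genes differed. Pdk2 (ENSMUSG00000038967, GRCm38 chr11:95026258-95041354, minus strand), a kinase that inactivates pyruvate dehydrogenase, had the largest difference of all members. It was at 90.9, 45.5, 147, 41.5 and 85.0 CPM in type 2, against 53.9, 0, 0, 0.096 and 0.191 CPM in type 1. It was detected in all 5 type 2 neurons, and 4 of the 5 type 1 neurons were at or near 0, while 1-1 lay within the type 2 range. The log2 difference was 4.99, with 5.95 over and 4.60 under 20000000 counts, 5.66 among the neurons numbered 9 and 5.14 without 6-2, 9-2 and 9-4, and it ranged from 4.68 to 6.12 when each neuron was left out in turn. Over all alternatives, other pseudocounts included, it ranged from 2.53 to 7.21, so its size is uncertain. In linear terms the mean was 81.9 ± 42.6 CPM in type 2, against 10.8 ± 24.1 CPM in type 1.

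The other kinases were scattered over both types. Pdk1 was detected in 2 type 2 and 3 type 1 neurons (difference -1.94, but 0.53 under 20000000 counts and 1.97 among the neurons numbered 9), and Pdk3 in 2 of each type (0.15). Of the pyruvate dehydrogenase complex itself, Dlat, the acetyl-transferring E2 core, was at 64.2, 223, 190, 202 and 164 CPM in type 2, against 76.6, 69.5, 0.102, 170 and 8.83 CPM in type 1. The difference of 2.63 was 2.25 over and 1.84 under 20000000 counts and 1.50 without 4-3. The type 2 neuron 6-2 lay below 1-1, 1-2 and 8-2, and 8-2 also exceeded 9-4. Pdha1, the E1 alpha subunit, had a difference of 1.66 that was 0.21 without 1-1, where it was at 0. Pdhb, the E1 beta subunit, stood at 198 ± 75.5 CPM in type 2, against 324 ± 187 CPM in type 1 (difference -0.47), and Dld, the E3 subunit shared with 2-oxoglutarate dehydrogenase, at 200 ± 179 CPM in type 2, against 301 ± 121 CPM in type 1 (difference -0.85). The mitochondrial pyruvate carrier genes differed by 0.24 for Mpc1 (0.13 over and 1.32 under 20000000 counts) and 0.32 for Mpc2 (0.33 over and 0.46 under).

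Of the 16 genes of the citric acid cycle, the step with the most members, 15 were higher in type 2 (background 56.2% of all genes). Their median difference was 0.59, beside 0.78 for upper glycolysis and 0.24 for all genes. Its summed level was 9098, 10969, 8974, 8599 and 8491 CPM in type 2, against 5615, 6450, 5294, 6719 and 6782 CPM in type 1. The ranges did not overlap, and they stayed apart with median-of-ratios size factors and without the 50 most abundant genes, but not with TMM (7627 to 13008 CPM in type 2, 3992 to 9272 in type 1). The median difference was 0.36 over and 0.87 under 20000000 counts, and -0.12 among the neurons numbered 9.

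Mdh1 (ENSMUSG00000020321, GRCm38 chr11:21556787-21572367, minus strand), the cytosolic malate dehydrogenase of the malate-aspartate shuttle, made up much of this sum. It was at 2571, 3531, 2751, 2871 and 2841 CPM in type 2, against 1725, 1769, 985, 1348 and 1849 CPM in type 1, and the ranges did not overlap. The ranges of Mdh1 stayed apart with median-of-ratios size factors and without the 50 most abundant genes, but not with TMM. The means were 2913 ± 364 CPM in type 2, against 1535 ± 363 CPM in type 1, and the difference of 0.95 was nearly the same over (0.92) and under (0.83) 20000000 counts; it was 0.63 among the neurons numbered 9. Its mitochondrial partner Mdh2 averaged 1117 ± 194 CPM in type 2, against 789 ± 254 CPM in type 1 (difference 0.54), with 9-1 inside the type 2 range. Of the exon bases of Mdh1, 52 overlap Wdpcp on the opposite strand.

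Cs (ENSMUSG00000005683, GRCm38 chr10:128337734-128362479, plus strand), citrate synthase, which admits acetyl-CoA to the cycle, was at 374, 382, 171, 464 and 208 CPM in type 2, against 31.3, 0, 12.96, 54.9 and 188 CPM in type 1. Only 9-1 of type 1 reached the type 2 range, where it exceeded 10-3. The difference was 3.79, with 1.46 over and 5.61 under 20000000 counts and 0.72 among the neurons numbered 9; in linear terms the mean was 320 ± 124 CPM in type 2, against 57.5 ± 75.9 CPM in type 1. Fh1, fumarase, was at 332, 343, 392, 137 and 196 CPM in type 2, against 91.6, 150, 0, 85.6 and 259 CPM in type 1. Its difference of 2.38 was 0.97 without 4-3, where no read was counted, and was -0.65 among the neurons numbered 9.

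Subunits of 1 complex did not move as a block. Of the NAD-linked isocitrate dehydrogenase, the differences were -0.33 for the catalytic Idh3a, 1.91 for Idh3b, or 0.81 without 4-3, and 0.85 for Idh3g. Ogdh, the E1 of 2-oxoglutarate dehydrogenase, had a difference of 0.59 that turned to -0.63 without 1-1, and Dlst, its E2, 1.25 that turned to -0.065 without the same neuron. All 4 succinate dehydrogenase subunits were higher in type 2, by 0.75 for the flavoprotein Sdha, 0.26 for Sdhb, 0.43 for Sdhc and 0.20 for Sdhd, and each was higher in both depth sets, although Sdhb, Sdhc and Sdhd were lower among the neurons numbered 9. Succinyl-CoA ligase was represented by Sucla2, the ATP-forming subunit (488 ± 44.7 CPM in type 2, against 335 ± 102 CPM in type 1), with Suclg1 at 320 ± 101 CPM in type 2, against 267 ± 98.6 CPM in type 1. Suclg2, the GTP-forming subunit, was detected only in 6-2 of type 2, at 30.7 CPM, and 1-1 of type 1, at 10.4 CPM.

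**Figure D4:**
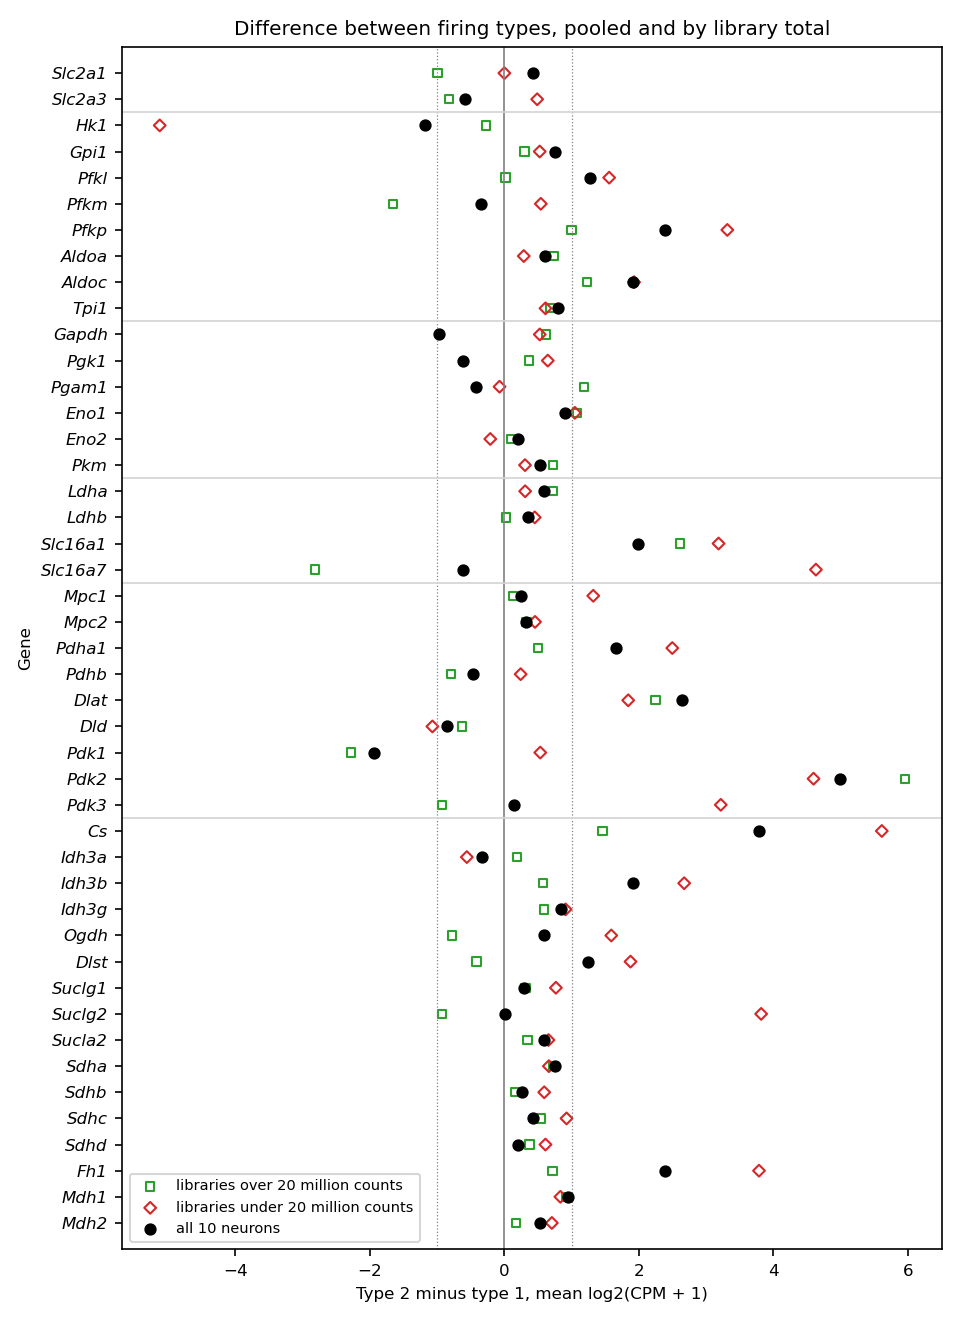
Difference in mean log2(CPM + 1), type 2 minus type 1, for the 45 measured genes, over all 10 neurons (black circles), over libraries above 20000000 counts (squares) and over those below it (diamonds); dotted lines mark 2-fold. Aldoa, Tpi1, Eno1, Sdha and Mdh1 have all 3 values close together, whereas Gapdh and Pgk1 have the pooled value left of 0 and both others right of it.

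Isozyme composition within a neuron does not depend on library scaling. Per exon length, Aldoc made up 18.2, 23.0, 27.2, 21.2 and 16.3% of aldolase transcripts in type 2 and 4.66, 13.7, 4.41, 17.7 and 15.0% in type 1. The means were 21.2 ± 4.24% in type 2 and 11.1 ± 6.17% in type 1, and the types overlapped only where 8-2 exceeded 9-4. Eno2 made up 69.6 ± 8.22% of enolase in type 2 and 77.2 ± 11.9% in type 1, and Ldhb 51.4 ± 3.40% of lactate dehydrogenase in type 2 and 55.6 ± 8.97% in type 1, differences smaller than the spread between neurons. Pfkm made up 47.5 ± 12.4% of phosphofructokinase in type 2 and 67.1 ± 12.6% in type 1, and 4 type 1 neurons (1-1, 4-3, 8-2 and 9-1) lay above every type 2 neuron. Exact (Clopper-Pearson) binomial 95% intervals of the same shares of counts spanned at most 2.86 percentage points in any neuron.

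**Figure D5:**
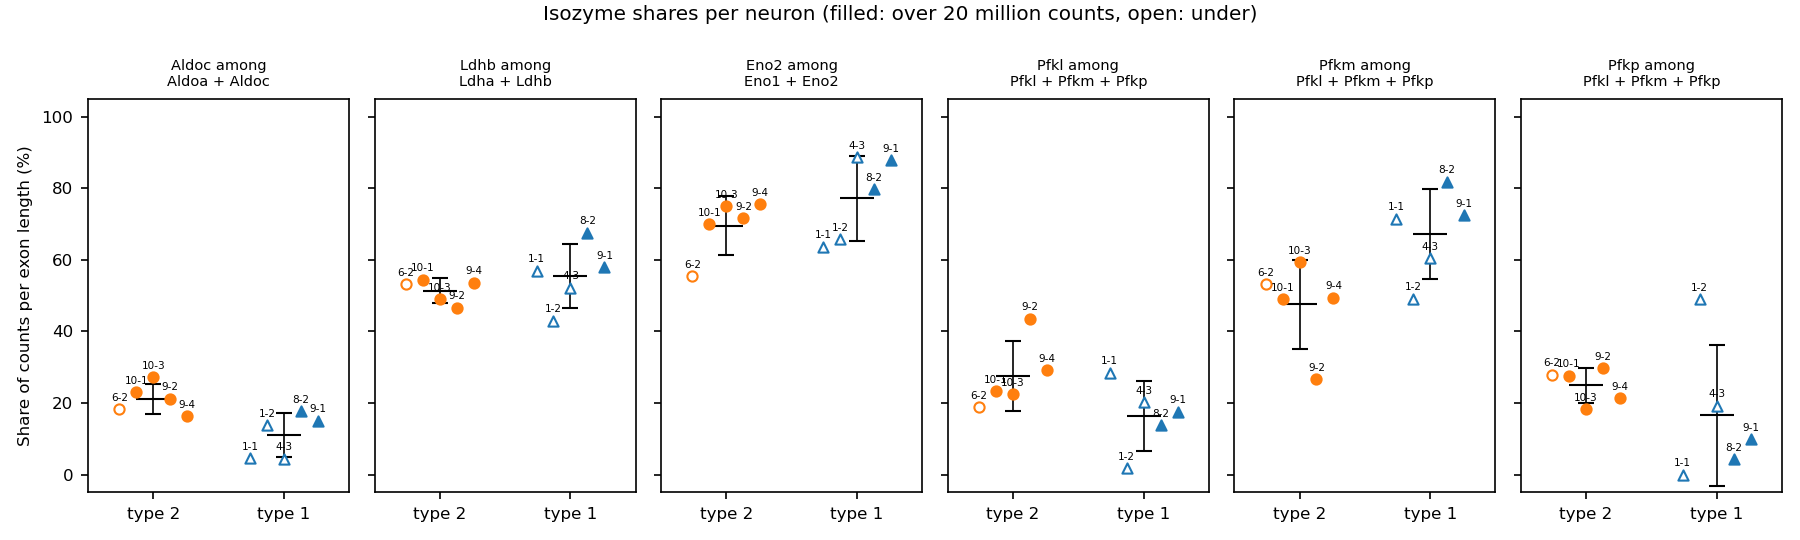
Share of each isozyme among the counts per exon length of its pair or trio, in percent, for each neuron, with type 2 left and type 1 right; bars are mean ± SD over 5 neurons and filled symbols are libraries over 20000000 counts. The Aldoc share is 16.3 to 27.2% in type 2 and 4.41 to 17.7% in type 1, and the Eno2 and Ldhb shares overlap broadly.

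Around these 47 genes, 9 further lists of the pathway held 104 genes, of which 83 reached a mean of 1 CPM. Of those 83, 34 were at least 2-fold higher and 13 at least 2-fold lower in type 2, shares to be read against 31.1% and 21.6% of all genes, and the median difference was 0.64 pooled, 0.069 over and 1.64 under 20000000 counts. Of the glucose carriers and sensors 4 were at least 2-fold higher and 3 lower of 8 measured, and Slc45a1, a proton-linked sugar transporter, had a difference of 1.56. The difference of Slc45a1 was 0.44 over and 3.37 under 20000000 counts.

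Among other citric acid cycle genes 5 of 10 were at least 2-fold higher and 1 lower. Ogdhl, the brain relative of Ogdh, was at 65.0, 277, 22.2, 75.6 and 125 CPM in type 2, against 0, 0.722, 0.306, 62.9 and 1.08 CPM in type 1, detected in 5 neurons of type 2 and 1 of type 1 (difference 4.74). Aco1, the cytosolic aconitase that also acts as an iron sensor, was detected in 3 neurons of type 2 and 0 of type 1 (4.22). Acly, which cleaves citrate to cytosolic acetyl-CoA and was chosen after its values were seen, was at 912, 1289, 585, 552 and 1016 CPM in type 2, against 198, 159, 71.1, 55.3 and 362 CPM in type 1, with no overlap between the types.

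In the malate-aspartate and citrate carrier list 3 of 6 were at least 2-fold higher and 0 lower, led by Slc25a1, the citrate carrier (1.59), and Got2, the mitochondrial aspartate aminotransferase (1.35). The difference of Slc25a1 was 0.028 over and 1.65 under 20000000 counts, with 4-3 at 1.43 CPM. That of Got2 was 0.76 over and 2.15 under 20000000 counts, with 4-3 at 0.306 CPM. In the list of other glycolytic enzymes and regulators 7 of 14 were at least 2-fold higher and 1 lower, among them Pgam5, a mitochondrial phosphatase (3.41), and Pfkfb3, which makes the activator of phosphofructokinase (2.51). Lactate genes gave 1 higher and 1 lower of 5, with Ldhd, the D-lactate dehydrogenase, at 2.26 and Emb, a chaperone of MCT2, at -1.74. Of the 5328 exon bases of Ldhd, 2246 overlap Znrf1 on the opposite strand, which had 16042 counts against 10874 of Ldhd. Other pyruvate genes gave 4 higher and 2 lower of 10, with the mitochondrial malic enzyme Me3 at 2.67 and the alanine aminotransferase Gpt2 at -2.62. The pentose phosphate list had 1 of 7 higher and 1 lower, with Taldo1, transaldolase, at 3.20 and Pgls, which hydrolyses 6-phosphogluconolactone, at 0.95. The difference of Pgls was -0.32 over and 2.46 under 20000000 counts. For glycogen 4 of 9 were higher and 2 lower, with the brain phosphorylase Pygb at 3.37. Among hypoxia and glycolysis regulators 5 of 14 were higher and 2 lower, with the glucose-responsive factor Mlxip at 3.45 and the mitochondrial coactivator Ppargc1a at 2.40. Among the neurons numbered 9 the difference had the other sign for Pgam5 (-1.23), Emb (0.13), Gpt2 (0.74), Pgls (-1.74) and Ppargc1a (-2.44). It kept its sign there for the other genes named in this paragraph, although Slc25a1 was at 0.016.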

How the data were processed

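Gene counts of 10 single neurons were analysed. Per the file headers and the values, the deposited tables hold whole-number counts of reads per gene, with no normalization and no molecular identifiers. Per the submitters' processing notes, cutadapt 1.13, STAR, HTSeq 0.6.1p1 and DESeq2 were used with the mm10 build; the versions of STAR and DESeq2, the read length, the multi-mapping rule and the strand option are not stated there. Symbols matched 24942 of 25006 identifiers.

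CPM was computed as counts over each library's summed gene counts (9796799 to 41844825), and levels as log2(CPM + 1). Differences are type 2 minus type 1 means over the 11923 genes averaging 1 CPM or more. Each sample is 1 cell and no animal is named, so no test, p-value or standard error was computed. Members are accounted for in full. Values per neuron are given for members whose type ranges do not overlap, for the 2 largest differences of each step among genes detected (10 CPM and 3 counts) in at least 3 neurons of a type, and for isozymes detected so; of each pathway list the 2 largest differences are named, except for results not reported here. Members and lists were chosen with earlier results of these data known.

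Exon lengths, loci and 50-base windows (moved by 10 bases) came from GENCODE M21 and promoters from RefSeq. No library repeated another: over 45 pairs, chi-square divided by its degrees of freedom was at least 558.8. Python 3.11.15, numpy 2.4.6, pandas 2.3.3, scipy 1.17.1, R 4.3.3 and edgeR 4.0.16 (TMM only) were used, and the procedure was tested on simulated data. Alternatives were other pseudocounts, scalings, filters and averages, depth sets, neuron numbers and neurons left out.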

Additional observations from a re-analysis of the deposited data

Results flagged for a closer look

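Among 90 groups of 5 neurons (45 genes in each type), 19 had 1 neuron far from the other 4, by a gap of more than 0.71 of the group's range on the log2(CPM + 1) scale. A chance rate of about 1 in 20 groups would hold for independent groups of normally distributed values. Here many genes were nearly absent from some neurons, and the groups of a type share the same neurons. The 19 groups are therefore not read as an excess over that rate.

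The neuron 1-1 stood apart in 6 type 1 groups. It was lowest for Pfkp (0 CPM, the others 177 to 499), Pdha1 (0, the others 87.8 to 280), Ogdh (6.94, the others 410 to 660) and Dlst (0.067, the others 51.2 to 197), and highest for Pkm (2113, the others 1088 to 1301) and Pdk2 (53.9, the others at most 0.191). In the other type 1 neurons, 1-2 was lowest for Pfkl (9.02 CPM) and highest for Slc16a1 (56.6), 8-2 was highest for Slc2a1 (62.6), and 4-3 was lowest for Fh1 (0).

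Among type 2 neurons, 6-2, the one library of this type under 20000000 counts, was highest for Gapdh (1538 CPM, the others 83.9 to 159), Pgk1 (271, the others 28.8 to 44.6), Pgam1 (142, the others 24.7 to 35.9), Slc16a7 (53.2) and Suclg2 (30.7), and lowest for Dlat (64.2, the others 164 to 223). The neuron 9-2 was highest for Slc2a1 (79.5 CPM) and Sdha (1092, the others 768 to 833), and 9-4 was lowest for Mpc2 (172, the others 285 to 308).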

How the results depend on the processing

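Of 1654 recomputed values under 25 alternatives, 1562 stayed within 1 SD between neurons, or within 1.5 times for a count. Direction was checked only for log2 differences of at least 2-fold, so smaller differences and isozyme shares among the 1562 may have changed sign. No paired analysis was possible because the replicate numbers only follow the order of deposit and no test between types was made. The members' median difference was 0.073 among the neurons numbered 9, and 0.44 to 0.58 with each neuron left out. The count of members at least 2-fold higher in type 2 was 7 by ratios of mean CPM and over 20000000 counts, 17 under 20000000, 6 among the neurons numbered 9 and 9 to 12 with each neuron left out. The count at least 2-fold lower was 1 with a pseudocount of 10, TMM or ratios of means, 5 by medians or among the neurons numbered 9, 6 without 6-2, 9-2 and 9-4, and 1 to 5 with each neuron left out: 1 without 1-2 or 9-2, 4 without 1-1, 4-3, 9-1 or 6-2, and 5 without 8-2. Separate ranges, higher in type 2, numbered 2 with TMM or median-of-ratios factors, 17 among the neurons numbered 9, 9 over and 22 under 20000000, 13 without 6-2, 9-2 and 9-4, and 4 to 7 with each neuron left out (7 without 9-1). Separate ranges, lower in type 2, numbered 13 among the neurons numbered 9, 2 over and 3 under 20000000, and 0 to 1 with each neuron left out (1 without 10-1). Ranges of fewer neurons lie apart more often by chance. No share of all genes is given for the neurons numbered 9, the depth sets or the set without 6-2, 9-2 and 9-4. The same holds with each neuron left out. The counts of separate ranges in these subsets are therefore not read as separation of the types. For the 2-fold counts no share of all genes is given under any alternative. Those counts are therefore not read as results about the members.

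Among the neurons numbered 9 the median difference was 2.03 for glucose uptake and -0.12 for the citric acid cycle, and under 20000000 counts it was 1.32 for pyruvate entry. With each neuron left out it ranged from -0.67 to 0.54 for glucose uptake, -0.44 to 0.06 for lower glycolysis and -0.06 to 0.48 for pyruvate entry. Type 2 minus type 1 isozyme shares among the neurons numbered 9 were 3.71 percentage points for Aldoc, -34.5 for Pfkm and -33.8 for Slc2a3 (against Slc2a1), over 20000000 -11.8 for Ldhb, and under 20000000 70.9 for Hk2 (against Hk1, at counts too low to read) and -4.74 for Sucla2 (against Suclg2). Summed markers, as log2 differences, were 0.45 with TMM, -0.012 among the neurons numbered 9 and -0.017 under 20000000 for neurons; 7.47 under 20000000 and -0.47 without 6-2, 9-2 and 9-4 for microglia; -2.56 among the neurons numbered 9 for the oligodendrocyte lineage; and -2.49 among the neurons numbered 9 and 1.79 under 20000000 for vascular cells and blood.

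Single genes at least 2-fold apart changed direction as follows. Hk1 was 0.66 by ratios of means, 1.12 by medians, 1.95 without 6-2, 9-2 and 9-4, and 0.041 without 9-2 (-2.06 to 0.041 with each neuron left out). Dlst was -0.46 by medians, -0.41 over 20000000 and -0.065 without 1-1 (-0.065 to 1.82 with each neuron left out). Pdk1 was 0.53 under 20000000. Among the neurons numbered 9, Pfkl was -0.28, Pdha1 -0.11, Pdk1 1.97, Dlst -0.72 and Fh1 -0.65. The cause of these shifts was not tested. Each subset holds fewer neurons, and under 20000000 counts type 2 is 1 neuron. Without 6-2, 9-2 and 9-4, type 2 is 10-1 and 10-3 alone.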
